A study of Mus musculus with 5 samples.

Results

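Gpnmb-positive macrophages were taken here as 117 of 79202 single-cell barcodes of injured and sham mouse kidney. A barcode was a member when it held at least 500 unique molecular identifiers (UMIs, one per captured transcript), at least 200 genes and at most 25% mitochondrial transcripts. It also had to hold at least 2 Gpnmb UMIs, at least 5 Lyz2 UMIs, at most 1 UMI of the proximal tubule gene Lrp2, and under 1% of its UMIs on the neutrophil genes S100a8 and S100a9. Arg1 and the C1q genes were not limited. Members were 0.148% of all filtered barcodes (95% exact binomial interval 0.122 to 0.177) and 7.43% (6.18 to 8.84) of the 1575 barcodes that met the same limits with any Gpnmb count, which are called Lyz2 barcodes below. Intervals throughout cover counting error only.

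The study followed the passage from acute to chronic kidney injury and asked about the receptor Mincle (Clec4e) in macrophages and neutrophils. Kidneys were collected after sham surgery and at 1, 3, 14 and 28 days after renal unilateral ischemia-reperfusion (UIR) in young adult male C57BL/6J mice, with 1 sample per group. The labels name 3 mice for each kidney sample and do not say whether their cells were pooled, and the study's methods describe more single-cell matrices than there are libraries here. The count matrix holds 5 libraries told apart by a number after each barcode, and nothing in the sources used here ties a library number to a surgery or a day. The matrix was therefore treated as 1 sample, libraries are named by number only, and no difference between conditions was computed. Members were chosen on Gpnmb in the same cells that are described, so no test was run on them, within libraries or over the pool, and every value is a description with a counting interval. The labels call the cells goblet cells, but 7 goblet genes held at most 59 UMIs each over all filtered barcodes (Zg16 0, Muc2 21 and Agr2 59 UMIs), against 753 counts per 1000000 UMIs (CPM) for Lrp2 and 264 CPM for Umod, which mark kidney tubule.

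Gpnmb encodes a transmembrane glycoprotein of lysosomes and phagosomes that macrophages make when their lysosomes are loaded with cell debris or lipid. Macrophages with Gpnmb, the lipid-sensing receptor Trem2, the fatty acid carrier Fabp5 and the tetraspanin Cd9 are known from fat tissue, atherosclerotic plaque, fibrotic liver and lung and injured kidney, and are often called lipid-associated macrophages. Mmp12 is the macrophage elastase, and Lyz2 is the lysozyme of mouse myeloid cells. In the kidney after ischemia, macrophages take up dead tubule cells, a load of membrane lipid, protein and iron.

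Members came from 4 of the 5 libraries and were unevenly spread. Library 1 held 9 members among 360 Lyz2 barcodes (2.5%, exact interval 1.15 to 4.69). Library 2 held 59 of 410 (14.4%, 11.1 to 18.2), library 3 held 12 of 588 (2.04%, 1.06 to 3.54) and library 4 held 37 of 199 (18.6%, 13.4 to 24.7). Libraries 2 and 4 thus supplied most of the members, and their intervals did not overlap those of libraries 1 and 3. Library 5 had 0 members among only 18 Lyz2 barcodes, which allows a share of up to 16.7% at 3 counts (exact upper limit 18.5%). Of all filtered barcodes, members were 0 of 12745 in library 5 (exact upper limit 0.0289%), against 0.0898% (0.0411 to 0.170) in library 1, 0.522% (0.397 to 0.672) in library 2, 0.0355% (0.0183 to 0.0619) in library 3 and 0.328% (0.231 to 0.452) in library 4. On that base the limit of library 5 lay below the intervals of libraries 1, 2 and 4 and overlapped that of library 3. Filtered barcodes had median depths of 4294.5, 4035, 1242, 3900 and 3190 UMIs in libraries 1 to 5. A deeper barcode meets the rule more easily, and these shares were not adjusted for depth. The intervals hold no spread between kidneys. No member shared its barcode sequence with a filtered barcode of another library, although 642 of the 78554 distinct sequences of the filtered set occurred in more than 1 library.

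Members were deeply captured cells. Their median was 9989 UMIs (range 570 to 51643) and 2398 genes, against 3672.5 UMIs and 1371.5 genes in the 1412 Lyz2 barcodes without a Gpnmb UMI (Gpnmb-zero barcodes) and 8029 UMIs in 19917 proximal tubule barcodes. Mitochondrial transcripts were 2.92% of UMIs in the median member and 4.06% in the median Gpnmb-zero barcode. The rule asks for 2 Gpnmb UMIs, which a deep barcode reaches more easily, so shares of barcodes with a UMI are compared between groups below both as counted and after every barcode was thinned to 1000 UMIs (107 members, 1316 Gpnmb-zero and 19897 proximal tubule barcodes). Median Scrublet doublet scores were 0.0785 and 0.0676, and 7 members lay among the highest scores of their libraries.

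The limits of the rule ran through a range of counts. With Gpnmb at 2 or more and Lyz2 at 5 or more there were 143 barcodes, of which 25 were left out for more than 1 Lrp2 UMI and 1 for S100a8 and S100a9. Just inside the limits, 15 members held exactly 2 Gpnmb UMIs, 12 held exactly 3, 3 held 5 to 9 Lyz2 UMIs and 28 held exactly 1 Lrp2 UMI. Just outside, 46 Lyz2 barcodes held exactly 1 Gpnmb UMI, and of the barcodes with 2 or more Gpnmb UMIs 7 held no Lyz2 UMI and 10 held 1 to 4. Free RNA was read from barcodes of 10 to 99 UMIs, where Gpnmb was at 2.01, 61.1, 41.4 and 77.5 CPM in libraries 1 to 4. At the members' median depth in each library this would give 0.0301, 0.7, 0.228 and 0.71 Gpnmb UMIs per barcode, below the limit of 2 in each. The same reckoning gives 4.87, 11.2, 1.02 and 1.16 Lyz2 UMIs, which is above the limit of 5 in library 2 and just below it in library 1.

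The 5 markers named for these cells were present, but not all in every member. In all, 53 of the 117 members (45.3%, 36.1 to 54.8) held at least 1 UMI of Gpnmb, Fabp5, Trem2, Mmp12 and Lyz2 together. Gpnmb itself (ENSMUSG00000029816, chr6:49036546-49070929, plus strand, GRCm38) ran from 1.16 to 149 UMIs per 10000 in single members, with a median of 15.5, and was at 3257, 2425, 1347 and 2184 CPM in the members of libraries 1 to 4. Lyz2, which the rule also used, was at 35429 against 12834 CPM in Gpnmb-zero barcodes.

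Fabp5 (chr3:10012548-10016607, plus strand), a carrier of fatty acids in the cytosol, had the highest ratio of the markers the rule did not use against all Gpnmb-zero barcodes. Against the Arg1-positive and the Ly6c2-positive barcodes described below, that of Mmp12 was at or above it. Fabp5 was at 7105, 4670.1, 3774 and 5196 CPM in the members of libraries 1 to 4, and at 318, 299.8, 357 and 458 CPM in the Gpnmb-zero barcodes of the same libraries. Every member value lay above every Gpnmb-zero value. Single members ranged from 0 to 170.1 Fabp5 UMIs per 10000 with a median of 39.2 (quartiles 15.3 and 62.8), a spread that the counting intervals of pooled values do not hold. Pooled, Fabp5 was at 4996 against 342 CPM, a log2 ratio of 3.87 (3.80 to 3.94), with 3.96 in library 2 and 3.50 in library 4, the only libraries with at least 20 barcodes in both groups. A Fabp5 UMI was found in 97.4% of the members, 25.1% of the Gpnmb-zero barcodes and 8.76% of the proximal tubule barcodes, and thinned these shares were 83.2%, 11.8% and 1.08%. Free RNA held Fabp5 at 27.1, 280.2, 38.7 and 33.8 CPM in libraries 1 to 4, so that the Gpnmb-zero level of library 2 was close to that of its free RNA.

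Trem2 (chr17:48346401-48354147, plus strand), the receptor for lipids and apoptotic cells, was less far apart. Members held 1340.3, 1155, 609.9 and 1317 CPM in libraries 1 to 4, and the pooled values were 1183 against 217 CPM, a log2 ratio of 2.45 (2.34 to 2.55). A Trem2 UMI was found in 89.7% of the members, 35.7% of the Gpnmb-zero barcodes and 0.532% of the proximal tubule barcodes, or 62.6%, 14.1% and 0.106% after thinning. Trem2 was thus also counted in many Lyz2 barcodes without a Gpnmb UMI.

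Mmp12 (chr9:7344381-7369499, plus strand) was not shared by the members of all libraries. Members of library 1 held 1578 CPM and those of library 2 held 3453 CPM, against 12.7 CPM in library 3 and 152 CPM in library 4. In single members it ran from 0 to 218 UMIs per 10000 with a median of 2.04. It was at 0 UMIs in 54 members and at 10 or more in 43. The pooled log2 ratio against Gpnmb-zero barcodes was 2.34 (2.27 to 2.42), but it was 1.97 in library 2, 0.19 in library 4 and 0.70 with library 2 left out. An Mmp12 UMI was found in 53.8% of the members, 12% of the Gpnmb-zero barcodes and 0.648% of the proximal tubule barcodes, or 41.1%, 7.6% and 0.0754% after thinning, and Mmp12 was the marker fewest members held.

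**Figure D1:**
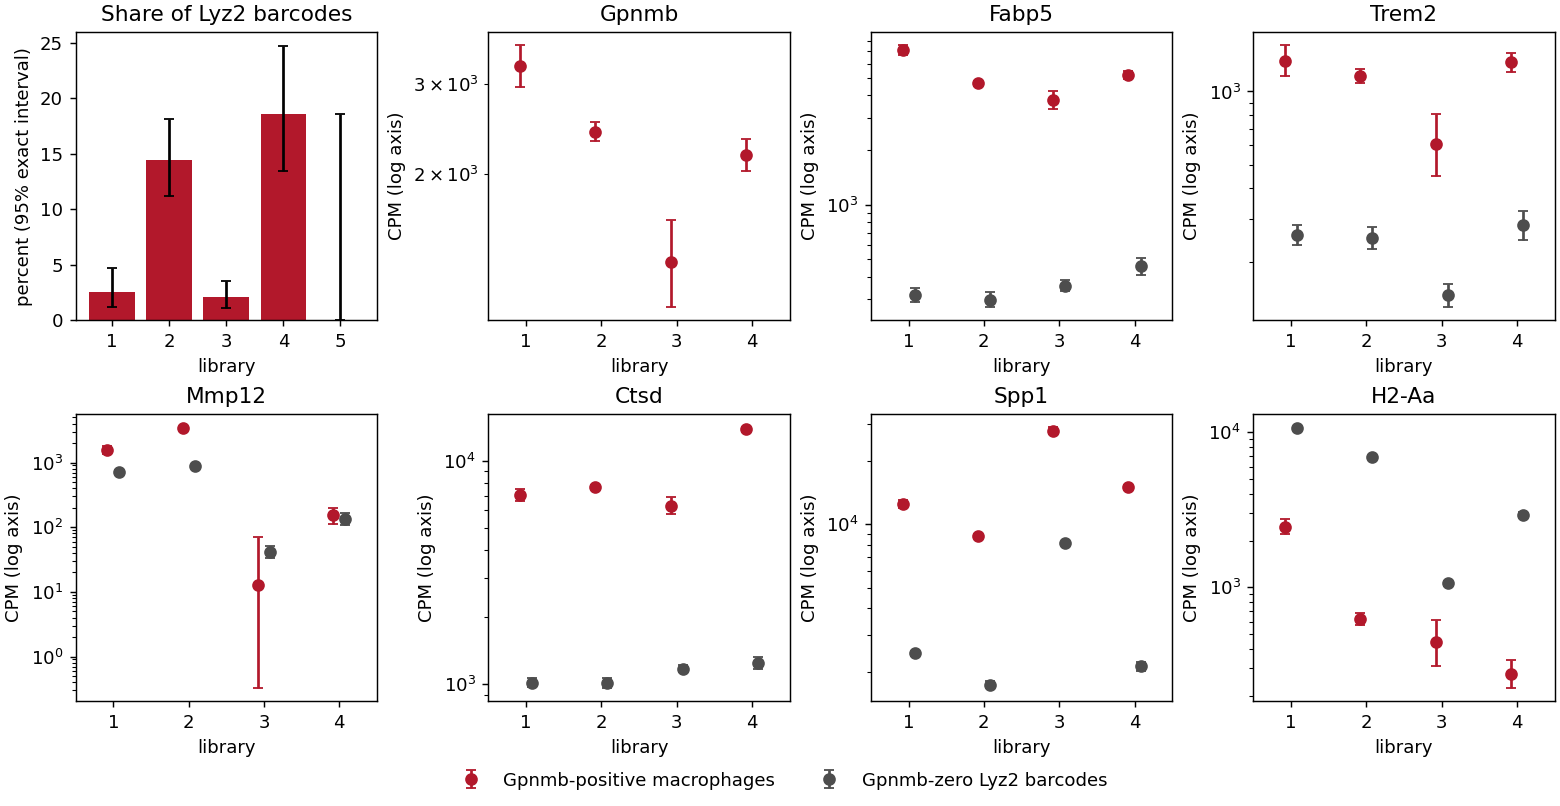
The first panel gives the percent of Lyz2 barcodes that were Gpnmb-positive macrophages in each of the 5 libraries with exact 95% intervals. The other panels give CPM on log axes for 7 genes in members (red) and Gpnmb-zero Lyz2 barcodes (grey) of libraries 1 to 4, with 95% Poisson intervals and points at 0 UMIs left out. Fabp5, Trem2 and Ctsd were higher and H2-Aa lower in members of library 2 and of library 4, while Mmp12 ran from 12.7 CPM in library 3 to 3453 CPM in library 2.

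Against the Gpnmb-zero barcodes, 281 of 7141 genes with a mean of at least 10 CPM (3.94%) were at least 2-fold higher in members and 751 (10.5%) at least 2-fold lower, each with the same direction in libraries 2 and 4. The rule chose the members on Gpnmb, so these counts describe the contrast and test nothing. The median log2 ratio of all 7141 genes was -0.15. With every barcode thinned to 1000 UMIs the counts were 521 higher and 398 lower, so the balance of higher and lower genes changed with this step. Gene lists below are given by their number of measured genes, the number past this 2-fold limit and their median.

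Several of the genes with the highest ratios were almost uncounted in Gpnmb-zero barcodes, and differed between the libraries of the members. Atp6v0d2, a subunit of the proton pump known from osteoclasts and macrophages, was at 382, 397, 0 and 67.4 CPM in the members of libraries 1 to 4 and at 6.21 CPM in Gpnmb-zero barcodes, a log2 ratio of 5.55 (5.07 to 6.07). Mfge8, which bridges apoptotic cells to phagocytes, was at 1254, 1154, 0 and 29.3 CPM in the same 4 libraries against 24.3 CPM, a log2 ratio of 5.07 (4.82 to 5.33). Both were thus high in libraries 1 and 2, low in library 4 and at 0 in library 3. The members of library 3 held 78706 UMIs in all, where 1 UMI is 12.7 CPM. For Mfge8 libraries 3 and 4 can therefore not be told apart. Syngr1, a synaptic-vesicle family protein, was instead highest in library 4, with 180.1, 168, 343 and 929.5 CPM against 18.1 CPM and a log2 ratio of 4.35 (4.05 to 4.66).

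Ctsd, the lysosomal aspartic protease cathepsin D, was the most abundant of the 25 genes with the highest ratios. It was found in all 117 members, at 7040.2, 7644, 6315 and 13831 CPM in libraries 1 to 4 against 1094 CPM in Gpnmb-zero barcodes. The log2 ratio was 3.05 (3.01 to 3.09), with 2.92 in library 2 and 3.47 in library 4. Its members' levels were thus above the pooled Gpnmb-zero level in each library, and highest in library 4. The neuropeptide gene Npy had the highest ratio, 5.66 (4.68 to 6.83) at 74.5 against 1.47 CPM, but it rested on 23 members, 1 of which held 21.6% of its UMIs. Ctsk, the collagen-cleaving cathepsin K of osteoclasts, was also held by few members. Its 149.8 against 7.19 CPM came from 20 barcodes, 1 of which held 40% of the UMIs.

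The coagulation factor gene F7 was at 118 against 7.84 CPM, a log2 ratio of 3.91 (3.43 to 4.40). The ratio of F7 was 2.62 in library 2 and at least 5.31 in library 4 at a floor of 3 UMIs, and library 1 members held no F7 UMI. The ubiquitin ligase gene Fbxo32 was at 104 against 12.4 CPM (log2 3.06), the phospholipase D family gene Pld3 of lysosomes at 354 against 61.8 CPM (log2 2.52), and Il7r, the interleukin-7 receptor chain, at 159 against 33.3 CPM (log2 2.25). Ahnak2, Cd200r4, Cd200, Anpep, Rnf128, Vat1, Pdpn, Fam20c, Lhfpl2, Slc6a8, Slc27a1 and Lrp12 had log2 ratios of 2.29 to 4.34. Library 2 weighed on many of these values. With it left out, 13 of the 25 ratios moved by more than 1.5-fold, among them Npy (log2 3.90), Atp6v0d2 (4.78), Mfge8 (3.89), Syngr1 (5.58), Anpep (1.60), Rnf128 (1.22) and Pdpn (1.81), and Cd200 (0.25) and Mmp12 (0.70) no longer reached 2-fold. The others of the 13 were Cd200r4, F7, Fbxo32 and Lrp12. Leaving out library 1 moved Cd200 that far, leaving out library 4 moved Syngr1, and leaving out library 3 or 5 moved none of the 25.

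Of the 20 measured genes of the lipid-associated macrophage list, 18 were higher in members and 0 lower (Trem2, Fabp5 and Mmp12, described above, are among those higher), with a median log2 ratio of 1.82 against -0.15 over all genes. Cd9 was at 981 against 263 CPM (log2 1.90), Lgals3, the galectin of phagocytic macrophages, at 6431 against 1813 CPM (log2 1.83) and the lipid droplet coat gene Plin2 at 1072 against 305 CPM (log2 1.81). Apoe, an apolipoprotein gene of cholesterol efflux, was at 18541, 22238, 9084 and 47757 CPM in the members of libraries 1 to 4 and 10329 CPM in Gpnmb-zero barcodes. Its log2 ratio was 0.54 in library 2 and 1.87 in library 4. Of the list, the stress cytokine gene Gdf15 (log2 1.08 pooled, -0.29 in library 2) and the metalloproteinase gene Mmp19 (log2 0.80 pooled, -1.33 in library 4) did not meet the limit.

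Spp1 (osteopontin) was abundant in members but also in free RNA. Members held 12481, 8809, 27787 and 14984 CPM in libraries 1 to 4 and Gpnmb-zero barcodes held 2445, 1735, 8142 and 2123 CPM. Free RNA of the same libraries held 1063, 2776, 8037 and 1228 CPM, which at the members' depth would give 15.9, 31.8, 44.3 and 11.2 UMIs per barcode. The pooled log2 ratio of members to Gpnmb-zero barcodes was 1.47 (1.44 to 1.5), with 2.34 in library 2 and 2.82 in library 4. A Spp1 UMI was found in 95.7% of the members, 70.2% of the Gpnmb-zero barcodes and 83% of the proximal tubule barcodes, or 84.1%, 52.7% and 57.1% after thinning. Spp1 was at 10 or more UMIs in 95 members and at 0 in 5.

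Genes of lipid uptake, storage and efflux were higher as a group. Of 21 measured, 14 were higher, with a median log2 ratio of 1.39. They covered fatty acid uptake and hydrolysis (Cd36 at 334 against 97.2 CPM, Lpl at 966 against 262 CPM), carriage (Fabp4 at 279 against 64.9 CPM), droplet storage (Hilpda at 371 against 80.5 CPM, Soat1 at 240.4 against 102 CPM), lysosomal release (Lipa at 591 against 149 CPM) and cholesterol export (Abca1 at 214 against 68.5 CPM, Abcg1 at 125 against 47.7 CPM). Lpl, the lipoprotein lipase, had a log2 ratio of 1.88 pooled and 1.10 without library 2.

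Lysosomal enzymes and membrane proteins were higher in part. Of 32 measured genes 14 were higher and 0 lower, with a median log2 ratio of 0.93. Next to Ctsd, the cysteine proteases Ctsb (5569.9 against 1629 CPM, log2 1.77) and Ctsl (1653 against 501 CPM, log2 1.72) were among those higher, as were the sphingolipid activator gene Psap (5502 against 2179.5 CPM, log2 1.34), the progranulin gene Grn (1003 against 424 CPM, log2 1.24) and the tetraspanin Cd63 (2113 against 731 CPM, log2 1.53). The membrane protein genes Lamp1 (log2 0.94) and Lamp2 (log2 0.20) were below the limit, and Ctsc, the dipeptidyl peptidase that activates serine proteases of granules, had a log2 ratio of -0.72. Of 16 subunits of the vacuolar proton pump, 3 were higher (Atp6v0d2, Atp6v1a and Atp6v1c1) and the median log2 ratio was 0.63. The 4 MiT/TFE transcription factor genes, known regulators of lysosomal genes, held none past the limit, with Mitf at 33.6 against 21.2 CPM (log2 0.66), Tfeb at 22.6 against 21.7 CPM (log2 0.06) and Tfe3 at a log2 ratio of -0.05.

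The promoters of Gpnmb, Ctsd and Mmp12 are shown because these genes carry the marker, the lysosomal and the variable portion of the pattern. They are RefSeq sequences of GRCm38.p6, 250 bases before to 50 after the start, read 5′ to 3′ on the gene's strand: Gpnmb chr6:49036268-49036567 (plus), Ctsd chr7:142387778-142388077 (minus) and the Mmp12 start at chr9:7347124-7347423 (plus), the one of the listed Mmp12 starts that held a match. Capitals mark matches on either strand to TCACGTG (reverse complement CACGTGA), the E-box that MiT/TFE factors are known to bind, or to TGAGTCA (reverse complement TGACTCA), the AP-1 site.
Gpnmb: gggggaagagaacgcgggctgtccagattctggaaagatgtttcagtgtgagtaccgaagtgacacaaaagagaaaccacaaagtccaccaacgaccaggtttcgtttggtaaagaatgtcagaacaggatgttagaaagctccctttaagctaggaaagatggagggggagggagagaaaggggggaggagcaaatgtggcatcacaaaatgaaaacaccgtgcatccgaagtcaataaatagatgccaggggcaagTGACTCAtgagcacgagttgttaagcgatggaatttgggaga
Ctsd: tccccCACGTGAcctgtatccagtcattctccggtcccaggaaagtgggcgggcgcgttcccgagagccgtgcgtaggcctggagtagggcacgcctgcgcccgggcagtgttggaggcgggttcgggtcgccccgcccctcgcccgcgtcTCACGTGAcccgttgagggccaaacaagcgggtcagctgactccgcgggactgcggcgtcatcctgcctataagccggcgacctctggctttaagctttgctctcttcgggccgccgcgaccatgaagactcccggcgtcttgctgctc
Mmp12: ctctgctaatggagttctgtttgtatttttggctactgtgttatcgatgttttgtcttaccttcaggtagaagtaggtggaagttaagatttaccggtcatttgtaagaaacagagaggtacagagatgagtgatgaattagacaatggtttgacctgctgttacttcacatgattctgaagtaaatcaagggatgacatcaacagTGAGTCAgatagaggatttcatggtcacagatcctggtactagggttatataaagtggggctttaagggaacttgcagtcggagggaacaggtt

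In the Ctsd promoter the E-box letters began 245 and 99 bases before the start, and the latter overlapped a match on the other strand that began 1 base further on. The AP-1 letters began 44 bases before the Mmp12 start and 9 bases after the Gpnmb start. Over all 32851 RefSeq promoters of this length, TCACGTG or its reverse complement occurred in 3.77% and TGAGTCA or its reverse complement in 5.20%. Of 33 lysosomal genes 27 were matched by symbol, with 30 promoters, of which 7 (23.3%) held TCACGTG (those of Ctsa, Ctsd, Gla, Glb1, Lamp1, Lgmn and Mcoln1) and 5 (16.7%) TGAGTCA. Of the 25 genes with the highest ratios 20 were matched, with 23 promoters, of which 1 (Ctsd) held TCACGTG and 1 (Mmp12) TGAGTCA. A match gives letters in a window and was not read as a bound site.

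**Figure D2:**
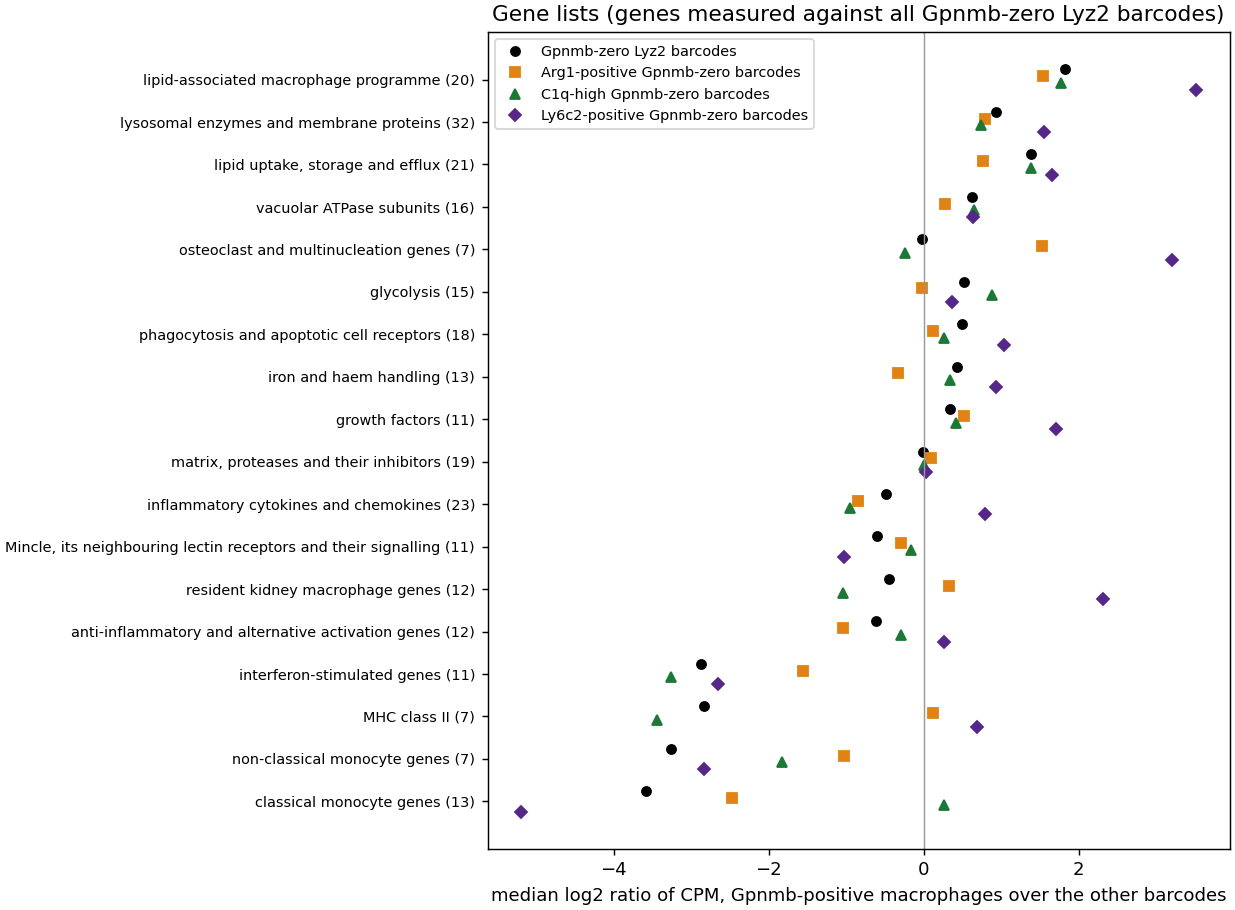
Median log2 ratio of CPM, Gpnmb-positive macrophages over other barcodes, for 18 gene lists (vertical axis, with the number of genes measured against all Gpnmb-zero barcodes), against 4 groups: all Gpnmb-zero Lyz2 barcodes (circles) and its Arg1-positive (squares), C1q-high (triangles) and Ly6c2-positive (diamonds) subsets. The lipid-associated list lay above 1 against each group, and the MHC class II list lay at -2.84 against all Gpnmb-zero barcodes and 0.12 against the Arg1-positive ones.

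Iron and osteoclast genes were mixed. The ferritin chains that store iron were among the most abundant transcripts, with Fth1 at 49787 against 17914 CPM (log2 1.47) and Ftl1 at 35577 against 11128 CPM (log2 1.68). The haem-degrading enzyme gene Hmox1 had a pooled log2 ratio of 0.41, made of 2.26 in library 2 and -0.22 in library 4. Of 13 iron and haem genes 4 were higher (with Blvrb and Slc48a1) and 4 lower (the iron exporter Slc40a1, Lcn2, Nupr1 and Bach1). Of 7 osteoclast and multinucleation genes 3 were higher, Ctsk, Atp6v0d2 and the tartrate-resistant phosphatase gene Acp5 (508 against 107 CPM, log2 2.25), and the list's median was -0.02.

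Receptors for dead cells showed no shared direction. Of 18 phagocytosis genes 3 were higher (Mfge8, Cd36 and Marco) and 2 lower (Scarb1 and Fcgr4), with a median log2 ratio of 0.49. Marco, a scavenger receptor, rested on 41 UMIs in 4 members, all of library 2. The apoptotic cell receptor gene Mertk had a log2 ratio of 1.17 made of 1.25 in library 2 and -0.07 in library 4. Of 13 pan-macrophage genes measured, Cd68 was higher (1053 against 409.8 CPM), Ptprc and Aif1 were lower, and the median was -0.15, with the growth factor receptor gene Csf1r at 279.8 against 377 CPM and Adgre1 (F4/80) at 113 against 148 CPM. Of 15 glycolysis genes 2 were higher (Pfkl and Pgam1), with a median of 0.53.

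Genes of matrix turnover split evenly. Of 19 measured, 4 were higher (Spp1, Mmp12, Timp2 and Adam8) and 4 lower (Sparc, Col1a1, Col3a1 and Timp3), with a median of 0.00. Timp2, an inhibitor of matrix metalloproteinases, was at 187 against 56.4 CPM (log2 1.73), and the fibronectin gene Fn1 was level at 539.9 against 541 CPM. Of 11 growth factor genes, Igf1 (195 against 51.8 CPM, log2 1.91), Pdgfa (68.7 against 28.9 CPM, log2 1.25), Vegfa and Inhba were higher and Areg lower, while Tgfb1 was at 185 against 166 CPM (log2 0.15). Of 12 measured genes that the study used to score fibrosis, 5 were higher (Pdgfa, Cd9, Tnfsf12, Igf1 and Timp2) and Col3a1 and Acta2 lower, a list the study applied to these same samples and that also holds Gpnmb.

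Inflammatory cytokine and chemokine genes were more often lower than higher against all Gpnmb-zero barcodes, but not against the Ly6c2-positive ones. Against all Gpnmb-zero barcodes, of 23 measured genes 1 was higher (Cxcl14) and 9 were lower, with a median log2 ratio of -0.48. Against the Ly6c2-positive barcodes 10 of 21 were higher and 3 lower, with a median of 0.79. Over all genes of that comparison 9.91% were higher and 18.3% lower. Of the 115 Ly6c2-positive barcodes 78 came from library 3, which held 12 members, so library and group cannot be told apart there. Il1b was at 836, 479, 1309 and 519 CPM in the members of libraries 1 to 4 and 2756 CPM in Gpnmb-zero barcodes, a log2 ratio of -2.27 (-2.37 to -2.16). Ccl4, a chemokine for lymphocytes and monocytes, was at 405 against 1593 CPM (log2 -1.98), and Il6 was at 0 UMIs in members and 21.2 CPM in Gpnmb-zero barcodes. The neutrophil chemokine gene Cxcl2 (2534 against 3467 CPM) and the monocyte chemokine gene Ccl2 (685 against 831 CPM) were below the limit. Tnf, the cytokine the study tied to Mincle, was at 146 against 148 CPM, a log2 ratio of -0.02 (-0.25 to 0.20). Its sign changed under other settings, over which it ran from -0.93 to 0.26.

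Mincle was counted in members at a level below that of Gpnmb-zero barcodes in the pool, but not in library 2. Clec4e was at 50.4, 128, 279.5 and 41.1 CPM in the members of libraries 1 to 4, 107 CPM pooled, against 163 CPM in Gpnmb-zero barcodes, a log2 ratio of -0.61 (-0.87 to -0.35). Within libraries the ratio was 0.11 in library 2 and -2.22 in library 4. Over all settings the pooled log2 ratio of Clec4e ran from -1.21 to -0.058. Library 3 held 12 of the 117 members but 560 of the 1412 Gpnmb-zero barcodes, so the pool mixes the libraries unevenly. A Clec4e UMI was found in 35.9% of the members, 28.5% of the Gpnmb-zero barcodes and 1.03% of the proximal tubule barcodes, and in 13.1%, 13.6% and 0.196% after thinning (exact interval 7.34 to 21.0 for members). Clec4d, the partner lectin that lies beside Clec4e in the genome, was at 367 against 115 CPM, a log2 ratio of 1.67 (1.51 to 1.84), with 2.35 in library 2 and 0.38 in library 4. Of 11 measured genes of Mincle, its neighbours and its signalling, Clec4d was the 1 that was higher, and Clec4a1 and Clec4a3 were lower.

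Antigen presentation and monocyte genes were far lower than in Gpnmb-zero barcodes. All 7 measured MHC class II genes were lower, with a median of -2.84. H2-Aa was at 2464, 628, 445 and 276 CPM in the members of libraries 1 to 4 and 10700.5, 6873, 1059 and 2937 CPM in the Gpnmb-zero barcodes, a pooled log2 ratio of -2.90 (-3.0 to -2.81). The invariant chain gene Cd74 was at 2224 against 14904 CPM (log2 -2.74) and the class II activator gene Ciita at 4.38 against 48.4 CPM (log2 -3.46). Of 13 classical monocyte genes 10 were lower (median -3.58), with the chemokine receptor gene Ccr2 at 30.7 against 368 CPM and Plac8 at 14.6 against 748 CPM. All 7 measured non-classical monocyte genes were lower (median -3.27), and so were 10 of 11 interferon-stimulated genes (median -2.87), with Isg15 at 30 against 155 CPM and Bst2 the exception at 301 against 275 CPM.

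The 15 genes with the lowest ratios included markers of dendritic cells, monocytes and stroma, and the Gpnmb-zero group holds any Lyz2 barcode without Gpnmb. Mgl2, a lectin of dendritic cells and macrophages, was at 3.65 against 272 CPM (log2 ratio -6.22, -7.84 to -4.99, and -5.98 in library 2). In library 4 members held no Mgl2 UMI against 244 CPM, at least 4.79 lower on the log2 scale at a floor of 3 UMIs. The dendritic cell lectin Cd209a was at 0 UMIs in members against 76 CPM, at least 5.12 lower at the same floor. Vcan, a proteoglycan of monocytes, rested on 3 UMIs in members, 2.19 against 103 CPM (log2 ratio -5.56, -7.84 to -4.00). Within library 2 the ratio of Vcan was nearer to 0, at -1.24 (3.7 against 8.76 CPM). In library 4 members held no Vcan UMI against 67.6 CPM, at least 2.94 lower at that floor. The highest Gpnmb-zero level of Vcan was 254 CPM in library 3, which held 12 members. Mgp, a matrix protein gene of stromal and endothelial cells, was at 5.11 against 574 CPM (log2 ratio -6.81, and -5.53 in library 2). Sparc was at 8.04 against 191 CPM. In library 4 members held no UMI of either gene, against 45.5 CPM for Mgp and 11 CPM for Sparc. There they were at least 2.37 and 0.33 lower at that floor, a limit set by the members' depth. Fibroblast and pericyte genes took up to 1.27% of the UMIs of a single Gpnmb-zero barcode and 0.0174% of a member, and their role in these ratios was not tested. With library 2 left out 14 of these 15 ratios moved by more than 1.5-fold, with library 1 left out 10, with library 3 left out 5, with library 4 left out 4 and with library 5 left out 0. Vcan, Ear2, Ccl17, Cd209a, Ifitm1, Iigp1 and Cxcl9 held 0 to 3 UMIs in all members, so their ratios lay at the floor. A ratio at the floor also moves with the number of member UMIs left, so these counts cannot show a dependence on library for those genes. None of the 15 ratios came under 2-fold with a library left out. Ccl17 held 3 UMIs in all members, so its log2 ratio of -0.35 after thinning to 1000 UMIs is a bound at the floor.

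Genes of resident macrophages and of alternative activation showed no shared direction. Of 12 measured resident kidney macrophage genes 1 was higher (Folr2, 21.9 against 6.7 CPM) and 3 were lower (Cd81, Maf and Vcam1). The complement gene C1qa was level in the pool at 2475 against 2446 CPM, a log2 ratio of 0.02 (-0.04 to 0.07). Within libraries C1qa was not level, at 2420 against 3348 CPM in library 2 and 2613 against 2110 CPM in library 4. After thinning, a C1qa UMI was found in 65.4% of the members and 45.3% of the Gpnmb-zero barcodes. Of 12 anti-inflammatory and alternative activation genes Arg1 (638 against 163 CPM, log2 1.97) and Trem2 were higher, and Retnla, Chil3, Socs3 and Nr4a1 were lower. Arg1 differed by library, at 626 against 27.6 CPM in library 2 and 815 against 346 CPM in library 4. Its log2 ratio ran from 1.60 to 3.08 over the settings. Of 10 cell cycle genes 0 were higher and 1 lower (Tyms), with a median of 0.67, and of 10 immediate early and dissociation genes 2 were lower, both heat shock genes (Hspa1a and Hspa1b).

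Genes of other cell types took few of the members' UMIs. The rule itself set the tubule and neutrophil content in part, through its limits on Lrp2 (25 barcodes left out) and on S100a8 and S100a9 (1 left out). The 15 proximal tubule genes took 0.188% of the members' UMIs (median 0.169% per member, highest 6.02%) against 0.622% in Gpnmb-zero barcodes. T and NK cell genes held 4 UMIs in all members, fibroblast genes 3, endothelial genes 7, B cell genes 22, dendritic cell genes 47 and neutrophil genes 135. Cd3d, Cd3e, Cd79a, Ms4a1, Pecam1, Cdh5, Flt3, Zbtb46 and Xcr1, which define lymphocytes, endothelium and dendritic cells, were each at 0 UMIs.

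Against the 87 Arg1-positive Gpnmb-zero barcodes (at least 2 Arg1 UMIs), 396 of 6973 genes (5.68%) were at least 2-fold higher in members and 716 (10.3%) lower. Of these 87 barcodes 67 came from library 3, which held 12 members, so library and group cannot be told apart here. Arg1, arginase 1 of wound macrophages, was itself at 638 CPM in members and 1836 CPM in this group. Fabp5 (4996 against 1076 CPM, log2 2.21), Trem2 (332 CPM in the group, log2 1.83) and Ctsd (2576 CPM, log2 1.81) were higher in members, and Igf1 was at 195 against 15.3 CPM (log2 3.67, 2.67 to 4.89). Spp1 (11811 against 11079 CPM) and H2-Aa (716 against 514 CPM) were under the 2-fold limit. Among genes higher in the Arg1-positive group were Ccr2 at 322 CPM (log2 -3.39) and F13a1 at 455 CPM (log2 -3.45). Ccl2 at 3083 CPM (log2 -2.17), Fn1 at 1939 CPM (log2 -1.84) and Clec4e at 230.2 CPM (log2 -1.10) were others. Leaving library 3 out gave 227 genes higher, thinning gave 257 higher, and matching the libraries gave 666 higher and 1086 lower. Matching weights each library by its member UMIs, of which library 2 held 59.2%. Libraries 1 and 2 held only 1 and 6 Arg1-positive barcodes, so the matched counts rest largely on few barcodes.

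Against the 591 C1q-high Gpnmb-zero barcodes (at least 10 UMIs of the complement C1q genes and no Arg1), 307 of 7082 genes (4.33%) were higher in members and 699 (9.87%) lower. This group and the former lie within the Gpnmb-zero barcodes and share the members as the other side, so the comparisons are not independent. Libraries 2 and 4 again held at least 20 barcodes in both. Fabp5 had a log2 ratio of 4.05 (3.94 to 4.15), with 4.23 in library 2 and 3.22 in library 4. Ctsd was at 2.89, Spp1 at 2.17 and Trem2 at 1.93, while Apoe was closer, at 27465 against 17829 CPM (log2 0.62). All 7 MHC class II genes were lower (median -3.44), with H2-Aa at 8226 CPM in the C1q-high group (log2 -3.52, -3.62 to -3.43). C1qa, which chose that group, was at 2475 CPM in members and 4691 CPM in it. After thinning, the counts were 627 higher and 393 lower, with lower calls again limited by the floor of 3 UMIs.

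Against the 115 Ly6c2-positive Gpnmb-zero barcodes (at least 3 Ly6c2 UMIs and under 10 C1q UMIs), 702 of 7086 genes (9.91%) were higher and 1295 (18.3%) lower. Of these barcodes 78 came from library 3, so library and group cannot be told apart. Of the lipid-associated list 19 of 20 genes were higher (median 3.51), and of the lysosomal list 23 of 33 (median 1.55). Fabp5 was at 109 CPM in the Ly6c2-positive group (log2 5.52), and Ctsd at 402 CPM (log2 4.49). C1qa, whose low count helped choose that group, was at 6.03 CPM in it. Monocyte genes were the reverse, with Plac8 at 14.6 against 2708 CPM (log2 -7.53), and Clec4e was at 107 against 442 CPM (log2 -2.04, -2.35 to -1.73). Leaving library 3 out gave 439 genes higher. Median depth was 9989 UMIs in members and 4076 in this group. Thinning to 1000 UMIs gave 715 genes lower, where the floor of 3 UMIs again limited lower calls.

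Levels were then read by Gpnmb count, across the border that the rule set. In Lyz2 barcodes with 0, 1, 2 to 3, 4 to 7 and 8 or more Gpnmb UMIs (1412, 46, 27, 27 and 63 barcodes), Fabp5 was at 342, 1235, 2166, 2755 and 6039 CPM and Ctsd at 1094, 2376, 4885, 6464 and 10422 CPM. Syngr1 was at 18.1, 88.4, 135, 249 and 440.4 CPM in the same order and Trem2 at 217, 348, 834, 858 and 1322 CPM. These 4 genes were each higher at 1 Gpnmb UMI than at 0 and highest at 8 or more. Atp6v0d2 instead was at 6.21, 51.8, 65, 64.6 and 385 CPM, about level from 1 to 7 Gpnmb UMIs and higher in the last class. H2-Aa was at 5361, 1452, 2085, 1477 and 284 CPM and Ccr2 at 368, 204, 114, 50.8 and 10.3 CPM, both with their lowest CPM in the last class. Clec4e (163, 119, 65, 161 and 103 CPM) and Tnf (148, 162, 125, 129 and 154 CPM) followed no order. Median depth was 3672.5, 4220, 6252, 8018 and 12507 UMIs in these classes, so depth went with the Gpnmb class. After thinning, the share with an H2-Aa UMI was 55.2, 30.8, 14.3, 21.7 and 19.0%, not lowest in the last class. Thinned shares of Trem2 were 14.1, 28.2, 61.9, 56.5 and 65.1%, with overlapping intervals in the last classes, as for H2-Aa. Those of Ccr2 were 28.2, 28.2, 4.76, 0 and 1.59%, and of Ctsd 41.9, 74.4, 100, 100 and 98.4%. Fabp5 (11.8, 48.7, 52.4, 87.0 and 92.1%) and Syngr1 (1.14, 7.69, 9.52, 30.4 and 34.9%) stayed highest in the last class.

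**Figure D3:**
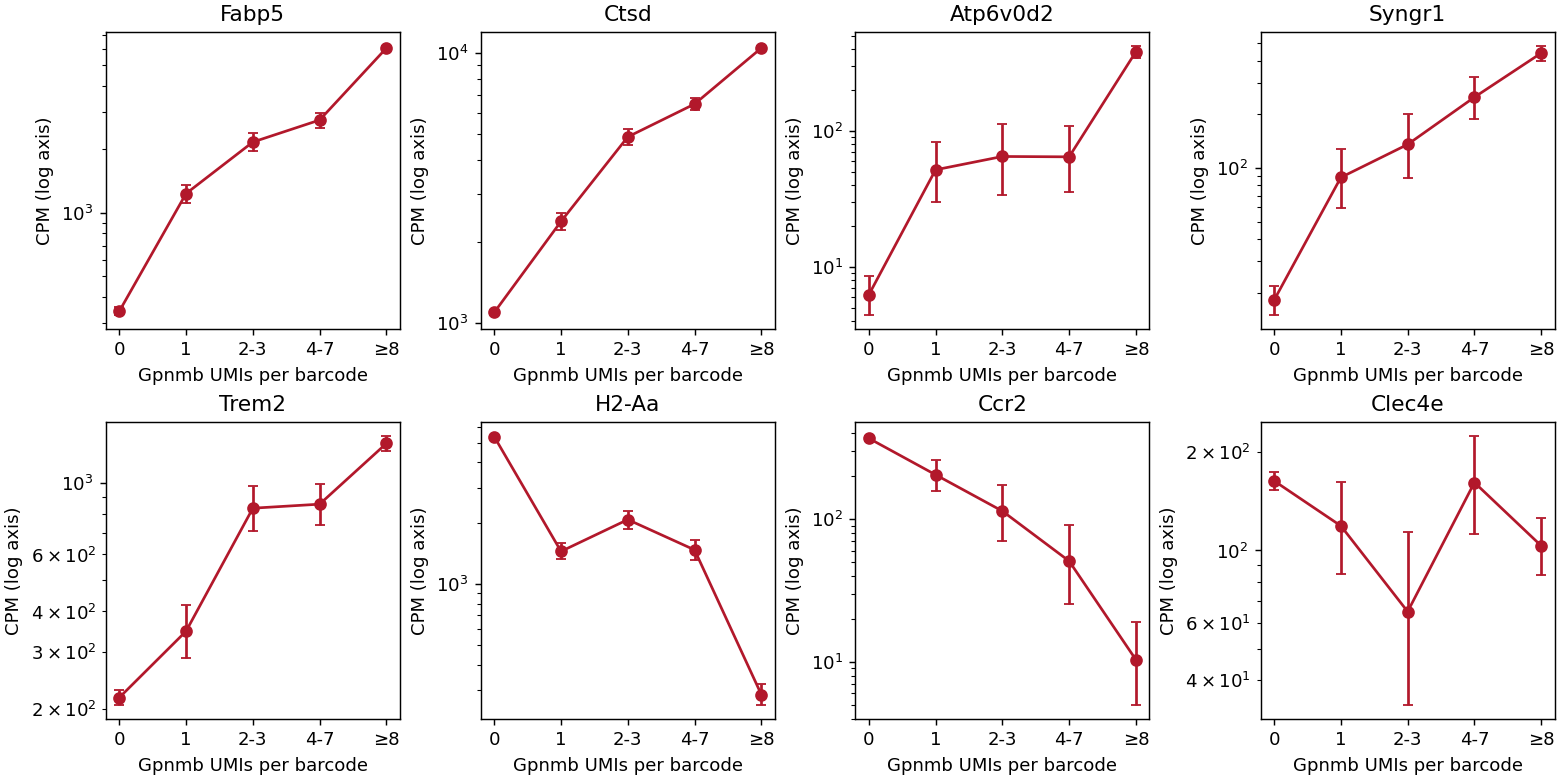
CPM on log axes of 8 genes in Lyz2 barcodes by their Gpnmb UMI count (0, 1, 2-3, 4-7 and 8 or more; 1412, 46, 27, 27 and 63 barcodes), with 95% Poisson intervals. Fabp5, Ctsd, Syngr1 and Trem2 were highest and H2-Aa and Ccr2 lowest in the class with 8 or more, while Clec4e followed no order.

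Arg1 and C1q, which the rule left free, divided the members. Arg1 was at 2 or more UMIs in 38 members (32.5%, 24.1 to 41.8), at 1 in 10 and at 0 in 69. C1q genes summed to 10 or more UMIs in 80 members (68.4%, 59.1 to 76.7), 30 members had both, and 28 had C1q under 10 and no Arg1. Members with 2 or more Arg1 UMIs numbered 2, 16, 6 and 14 in libraries 1 to 4, so no library held 20 in both Arg1 classes. A single member held 28.1% of all Arg1 UMIs.

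Members with Arg1 at 2 or more, set against those with 0, held more Spp1 (17027 against 7602 CPM), Fn1 (834 against 312 CPM), Tnf (242 against 68.8 CPM, log2 1.81, 1.32 to 2.32), the neutrophil chemokine gene Cxcl1 (549 against 139 CPM) and the scavenger receptor gene Msr1 (327 against 113 CPM). They held less H2-Aa (295 against 977 CPM, log2 -1.73, -1.98 to -1.48), Igf1 (113 against 260.5 CPM) and Gdf15 (76.9 against 490.2 CPM). Ccl24 led the list (147 against 2.93 CPM) but 97.6% of its UMIs in all members were in 1 barcode. These genes were chosen after their values were seen. A deeper barcode reaches 2 Arg1 UMIs more easily, and the classes were matched neither for depth nor for library. Library 3, where members held 27787 CPM of Spp1, supplied 6 of the 38 members with 2 or more and 3 of the 69 with 0.

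Clustered on variable genes without the genes of the rule, the members fell into 2 sets that largely followed the libraries. Set 1 held 64 members (4, 12, 11 and 37 from libraries 1 to 4, median depth 8999 UMIs) with Chil3, Ccl24 and F13a1 as leading genes. Almost all Ccl24 UMIs were in a single barcode. Set 2 held 53 (5, 47, 1 and 0, median depth 14496 UMIs) with Ctsk, Mki67 and Cd200 first, though a single barcode held 40% of the members' Ctsk UMIs. Of its 10 leading genes 6 are genes of dividing cells (Mki67, Top2a, Ube2c, Cdk1, Birc5 and Pclaf), with Mki67 at 5.3 against 89.7 CPM and Top2a at 7.06 against 84.8 CPM in set 1 and set 2. Apoe was at 45867 against 14474 CPM in set 1 and set 2, Syngr1 at 662 against 162 CPM, Mmp12 at 406 against 3539.7 CPM, Lpl at 281 against 1449.5 CPM and Fabp4 at 65.3 against 430.0 CPM. Of the other markers, Trem2 was at 1188 against 1179 CPM and Fabp5 at 4549 against 5312 CPM. The sets were made from these genes and are given as a description.

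The members of libraries 2 and 4, which held 59.2% and 24.9% of the member UMIs, were the ones with enough cells to set side by side, a comparison chosen after the values were seen. Mfge8 was at 1154 against 29.3 CPM (log2 5.30, 4.41 to 6.36), Mmp12 at 3453 against 152 CPM (log2 4.5, 4.11 to 4.93) and Lpl at 1305 against 155 CPM (log2 3.07, 2.67 to 3.50). Fabp4 (409.7 against 88 CPM) and Cd36 (449 against 99.7 CPM) were also higher in library 2. The lipid genes Apoe (22238 against 47757 CPM), Plin2 (763 against 1777 CPM) and Apoc2 (129.6 against 1419 CPM) were instead lower in library 2. The Gpnmb-zero barcodes of the same libraries also differed for Mmp12 (883 against 134 CPM), Lpl (389 against 77.2 CPM), Fabp4 (99.7 against 16.5 CPM) and Cd36 (159.7 against 22.1 CPM), and for Mfge8 they were at 31 against 15.2 CPM.

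Library 4 members held more Syngr1 (168 against 929.5 CPM), the apolipoprotein gene Apoc2 (129.6 against 1419 CPM), the matricellular gene Thbs1 (105 against 827 CPM) and the chitinase-like gene Chil3 (3.7 against 290.3 CPM), for which the Gpnmb-zero barcodes were at 80.2 against 444 CPM. Tnf was at 151 against 23.5 CPM in members and 171 against 51 CPM in Gpnmb-zero barcodes. Aif1 was at 112 against 402 CPM in members but 517 against 514 CPM in Gpnmb-zero barcodes. Each is 1 library, so a difference between them cannot be told apart from one of surgery, day or preparation.

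**Figure D4:**
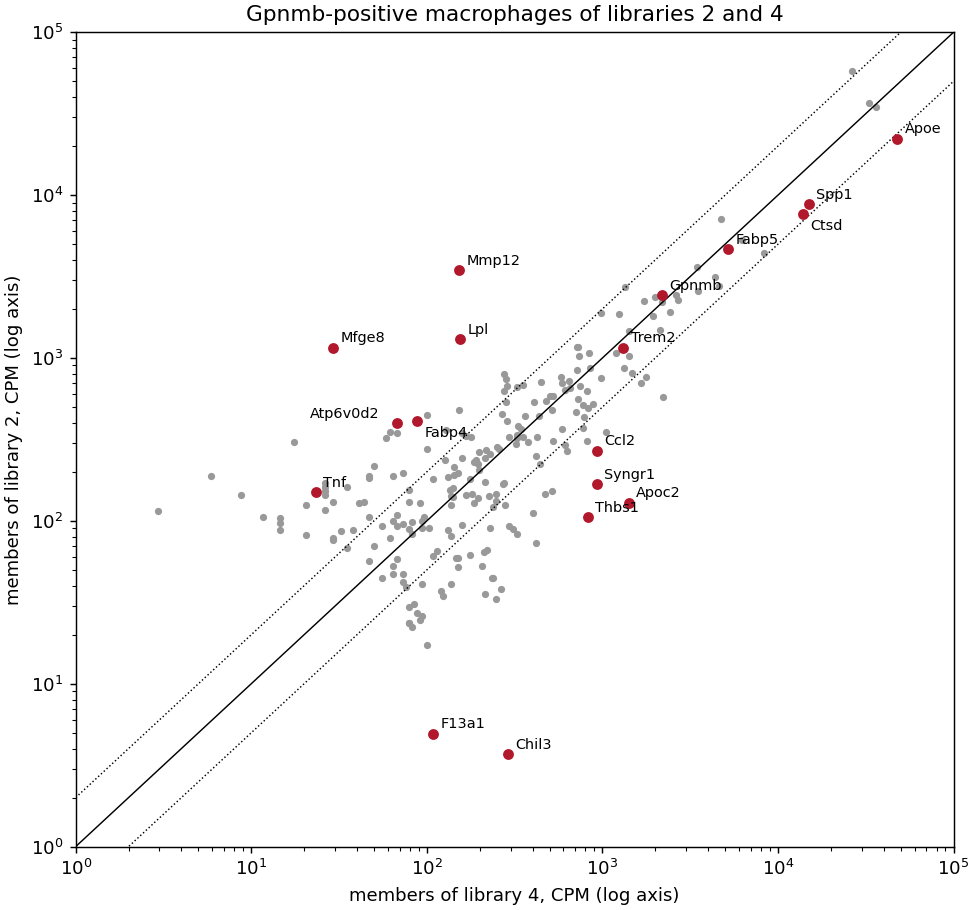
Each point is a gene with a mean of at least 50 CPM that was among the 30 highest or 30 lowest ratios of library 2 to library 4 or in a gene list, with its CPM in the members of library 4 on the horizontal and of library 2 on the vertical log axis, genes without a UMI in either library left out. The solid line marks equal levels and the dotted lines 2-fold differences, with named genes in red. Mfge8, Mmp12 and Lpl lay far above the band and Chil3, Thbs1 and Syngr1 below it, while Fabp5, Trem2 and Gpnmb lay within it.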

How the data were processed

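Single-cell RNA-seq of kidney was made with the 10x 3′ v3.1 chemistry. Per the labels, the authors used Cell Ranger 6.0, and reads were aligned to mm10. The deposited file is a matrix of raw UMI counts (32285 genes by 10474594 barcodes) without cell calling, in which 5 libraries of 82426945 to 139382799 UMIs are merged. Filtered barcodes (at least 500 UMIs, at least 200 genes, at most 25% mitochondrial) numbered 10020 to 33839 per library, at median depths of 1242 to 4294.5 UMIs.

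UMIs were summed over the barcodes of a group and given as CPM with 95% Poisson intervals. Log2 ratios of CPM have exact conditional binomial intervals and shares have Clopper-Pearson intervals, all for counting error only. With no map from library to sample the matrix was treated as 1 sample. Members were chosen on Gpnmb in the cells described, so no test was run within libraries either. A gene counted as higher or lower at a mean of at least 10 CPM and a 2-fold ratio, with the same direction in each library holding at least 20 barcodes in both groups. In ratios a count under 3 UMIs was set to 3, and such a ratio is a bound. Doublets were scored with Scrublet per library and kept. The ratio step was tested on simulated members and Gpnmb-zero barcodes, with each group drawn from a single profile. That simulation held no spread between barcodes or libraries of a group, so it cannot show how the intervals behave with such spread.

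The members and gene lists were chosen with earlier results of these data known. Named genes are the markers, the genes of the rule, the 25 highest and 15 lowest ratios against Gpnmb-zero barcodes at 50 CPM or more in the higher group, 3 leading genes of each set and list genes. Some results on list genes are not reported here. Gene positions are those of GRCm38. Alternatives changed the depth, mitochondrial, Gpnmb, proximal tubule, Scrublet and CPM limits, left out each library, thinned barcodes to 1000 UMIs, matched libraries, or averaged over barcodes. Python 3.11.15, numpy 2.4.6, scipy 1.17.1, pandas 2.3.3, scanpy 1.11.5, igraph 0.11.9 and matplotlib 3.10.9 were used.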

Additional observations from a re-analysis of the deposited data

How the results depend on the processing

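Of the log2 ratios of 53 named genes, thinning moved 37 beyond their counting interval (3 genes gave no value), and leaving out library 2 moved 36, library 3 23, library 1 17 and library 4 12. Averaging over barcodes moved 21, matching libraries 19, Gpnmb at 4 or more 9, and the other filters on barcodes 1 to 7. A minimum CPM cannot change a ratio, and library 5 held no members. Where members held 3 UMIs or fewer under a setting, the ratio is a bound that moves with the number of UMIs kept. In all 12 values changed sign, those of Tnf and C1qa. The log2 ratio of Tnf was 0.011 with Gpnmb at 4 or more UMIs, 0.026 with libraries matched, and -0.52 to 0.26 with each library left out, above 0 without library 1 (0.26) or library 4 (0.21). Over all settings the log2 ratio of Tnf ran from -0.93 to 0.26. That of C1qa was -0.11 with Gpnmb at 4 or more, -0.030 without barcodes over 2% proximal tubule transcripts, -0.058 without the highest Scrublet scores, -0.024 thinned, -0.26 with libraries matched, -0.14 averaged over barcodes, and -0.43 to 0.39 with each library left out, below 0 without library 3 (-0.43) or library 4 (-0.036).

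The share of members among Lyz2 barcodes was 5.71% with Gpnmb at 4 or more, and 4.98 to 10.6% with each library left out. Against Gpnmb-zero barcodes, 521 genes were higher and 398 lower after thinning, 629 and 1772 with no minimum CPM, 123 and 173 at a mean of 50 CPM, and 280 to 373 and 737 to 959 with each library left out. Against Arg1-positive barcodes there were 257 higher after thinning, 666 higher and 1086 lower with libraries matched, 1218 lower with no minimum, 98 and 146 at 50 CPM, 612 higher averaged over barcodes, and 227 to 505 higher and 716 to 1006 lower with each library left out. The matched counts rest largely on the 1 and 6 Arg1-positive barcodes of libraries 1 and 2. Against C1q-high barcodes there were 627 and 393 after thinning, 691 and 1688 with no minimum, 132 and 194 at 50 CPM, 470 higher averaged over barcodes, and 309 to 443 and 702 to 933 with each library left out. Against Ly6c2-positive barcodes there were 715 lower after thinning, 201 and 356 at 50 CPM, and 439 to 804 and 1232 to 1462 with each library left out. The minimum CPM sets how many genes are tested, and after thinning the floor of 3 UMIs limits calls for genes of low level. How much of the thinned shifts follows from the floor was not tested, nor was the cause of the other shifts. The number of barcodes limits the precision in library 5, with 18 Lyz2 barcodes, and in libraries 1 and 3, with 9 and 12 members.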
